A study of Araneus ventricosus with 24 samples.

Results

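Hemocyanin, the copper protein that carries oxygen in spider blood, was represented in the assembled transcripts of the orb-weaving spider Araneus ventricosus by 15 of 142219 gene clusters (0.0105%). These are the clusters whose closest described protein in the NR or the Swissprot collection is a hemocyanin. The rule picks them by name and not by level, but it was set with earlier results of these data known. A cluster is an assembled transcript group that stands in for a gene. The 7 kinds of subunit, lettered A to G, were each covered by a long cluster, and these carried 97.1% of all reads assigned to hemocyanin.

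Spider hemocyanin is not packed into blood cells but is dissolved in the hemolymph, where subunits of several kinds assemble in fixed positions into large particles. Each subunit binds oxygen between a pair of copper ions held by histidines. The protein belongs to the same superfamily as the phenoloxidases and the insect hexamerins, and chelicerate hemocyanin can take on phenoloxidase activity. Its subunits are among the abundant proteins of spider hemolymph.

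RNA came from the ampullate gland, a silk gland, and from the cerebral ganglia, the spider's brain. Spiders were exposed for 30 days to cadmium, to lead or to cadmium plus lead, or were left untreated, and the labels give no dose, sex, age or pooling. Of the 3 deposited columns in each of the 8 groups, 4 columns copied another of their group in every cluster and were left out. The 20 distinct libraries are, in each tissue, 3 with cadmium, 2 with lead, 2 with both metals and 3 untreated. The labels do not tie a library to an animal, and the spread behind each p-value is that among libraries only. In such bulk RNA fewer cells of a type and less RNA per cell cannot be told apart.

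Library totals ran from 14834065 to 20954478 counts. Levels are CPM, a cluster's counts scaled to a common library total. FPKM, which also divides by length, serves wherever one subunit is set beside another. Silk gland marker clusters summed to 52140 to 184400 CPM in libraries labelled gland and to 366.5 to 6568 CPM in those labelled ganglia. Nerve markers summed to 1083 to 1720 CPM in the gland and 2199 to 10530 CPM in the ganglia, and muscle markers to 1400 to 8539 and 36930 to 71360 CPM, so the ganglia libraries held much muscle RNA. The labels name no batch, but the mean fragment length implied by the FPKM values was 277.2 to 278.3 bases in the 4 gland libraries with lead and 246.9 to 273.4 bases in the 6 without. In the ganglia it was 271.1 to 281.2 bases with lead and 247.9 to 261.9 bases without. Lead and library preparation therefore cannot be told apart within a tissue.

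Subunit letters come from the name of the closest NR protein, except for one short cluster of subunit F, whose letter is in its Swissprot name alone. The NR protein was a subunit of the golden orb-weaver Nephila inaurata for 12 of the 15 clusters. The long clusters measure 2157 bases for subunit A (Cluster-16698.48152), 2260 for B (Cluster-16698.48530), 5071 for C (Cluster-16698.45027), 2367 for D (Cluster-16698.46432), 2681 for E (Cluster-16698.45280), 2451 for F (Cluster-16698.45628) and 1769 for G (Cluster-16698.47552). In Swissprot the long cluster of subunit E matches a hemocyanin of the scorpion Androctonus australis and the others match chains of the tarantula Aphonopelma. All 7 carry the Pfam domain described as the common central domain of tyrosinase. In the whole table only 10 clusters carry that domain, and 8 of them are hemocyanin clusters.

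Besides the long clusters, 2 short ones had appreciable reads. One of 426 bases was named subunit G (Cluster-16698.49922, mean 72.8 CPM over the 20 libraries) and one of 450 bases subunit E (Cluster-16698.62700, mean 63.0 CPM). The remaining 6 clusters, of 327 to 1503 bases, held 304.6 of 1613980 hemocyanin counts, and each stayed below 2 CPM in every library. One is named for subunit A, 2 for subunit B and 3 for subunit F, and they may be fragments or near-identical copies whose reads the counting could divide. Another 2 clusters are named hemocyanin by a nucleotide match alone and were not counted among the 15. One of these, of 2447 bases, averaged 1.17 CPM.

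Hemocyanin levels differed widely between libraries of one group. Summed over the 15 clusters, the gland held 809.1, 361.7 and 2941 CPM in the cadmium libraries. With lead it held 30.43 and 395.1 CPM, and with both metals 1088 and 510.8 CPM. Untreated glands held 1183, 7329 and 1576 CPM. The lead libraries and 1 cadmium library were the lowest, and untreated replicate 2 stood above every other gland library.

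In the ganglia the sums were 8163, 2369 and 1974 CPM with cadmium. They were 3439 and 5692 CPM with lead and 26710 and 2955 CPM with both metals. Untreated ganglia held 6884, 15860 and 2731 CPM. Here the highest library of all belonged to the combined exposure and its partner lay among the lower ones, so the exposures overlapped. Hemocyanin took 0.00304% of counts in gland lead replicate 1 and 2.67% in ganglia combined replicate 1, an 878-fold range. The highest library of a group exceeded the lowest by 1.66-fold (ganglia with lead) to 13.0-fold (gland with lead).

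**Figure D1:**
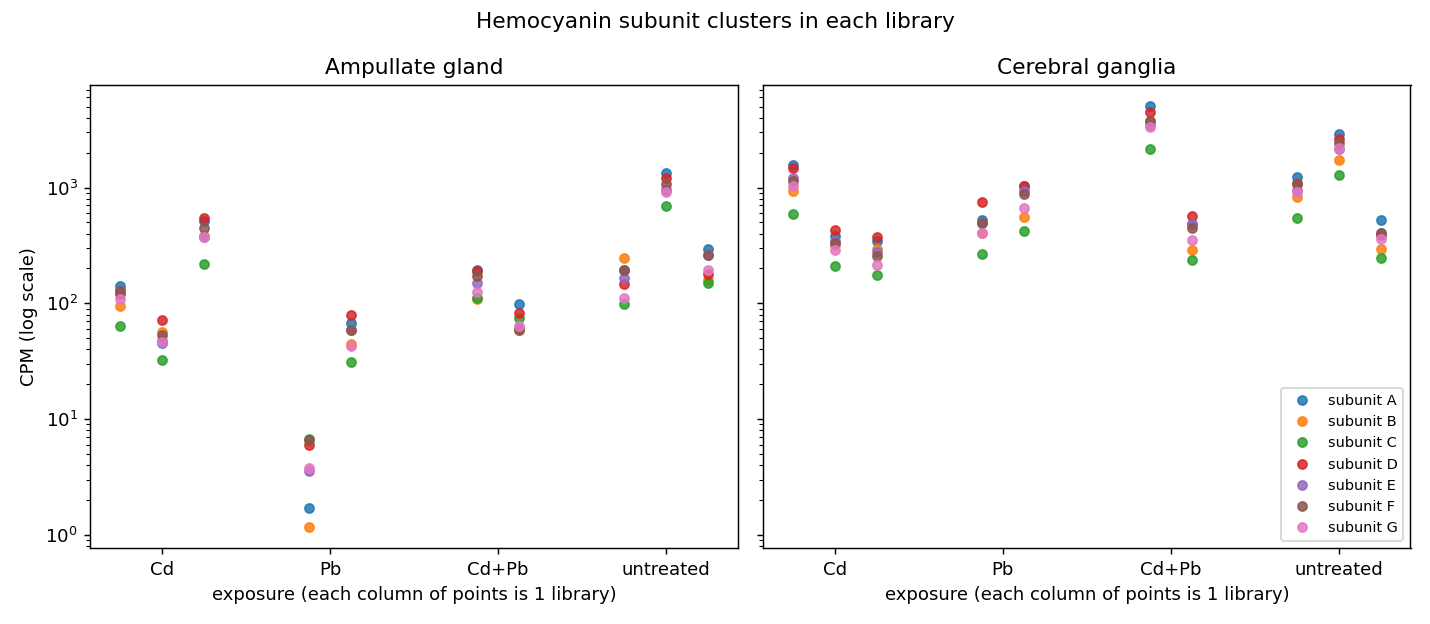
CPM of the long cluster of each hemocyanin subunit (colours) in every library, on a log scale, with the gland on the left and the ganglia on the right. Each column of points is 1 library, grouped by exposure. The 7 subunits stay together within a library while libraries of one group lie far apart, as in ganglia combined, where subunit A had 5063 and 487.6 CPM.

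The subunits kept close company across libraries. Subunit A, the most abundant by reads, had 140.3, 45.8 and 514.4 CPM in glands with cadmium, 1.70 and 67.6 CPM with lead and 195.8 and 99.2 CPM with both metals. Untreated glands had 193.9, 1342 and 295.5 CPM of it. Every lead library lay below every untreated one, and each remaining exposure overlapped with untreated.

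In the ganglia subunit A had 1557, 380.6 and 343.1 CPM with cadmium, 526.8 and 1022 CPM with lead and 5063 and 487.6 CPM with both metals. Untreated ganglia had 1243, 2927 and 523.5 CPM. Each exposure overlapped with untreated here. Subunit C, the least abundant per length, had 6.79 and 31.1 CPM in glands with lead, against 98.7, 688.9 and 150.6 CPM in untreated glands.

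Across the 10 gland libraries the 21 pairs of long clusters had Pearson correlations of log2(CPM + 1) of 0.951 to 0.995, and across the 10 ganglia libraries 0.974 to 0.998. Spearman's rho was 0.927 to 0.988 in the gland and 0.915 to 1 in the ganglia. These are descriptions over libraries that also share their exposure and total. They show that a library rich in one subunit was rich in all 7.

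Per length the mixture of subunits was also steady. Over the 20 libraries subunit A made up 19.4 ± 3.45% of the summed FPKM of the 7 long clusters (SD, n = 20), D 17.8 ± 2.76%, G 17.7 ± 1.54% and F 15.1 ± 2.36%. Subunit B made up 13.0 ± 3.39%, E 12.7 ± 1.22% and C 4.28 ± 1.76%. C was the lowest in 19 of 20 libraries. At the upper end A ranked first in 13 libraries and D in 5.

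Most neighbours in that order do not differ beyond the spread between libraries. A exceeded D in 14 of 20 libraries (FPKM ratio 0.317 to 1.81), D exceeded G in 11, F exceeded B in 14 and B exceeded E in 9. G exceeded F in 18 of 20. E exceeded C in all 20, with a median ratio of 3.34. The cluster of C is also the longest of the 7, and the part of its length in the low FPKM was not tested.

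**Figure D2:**
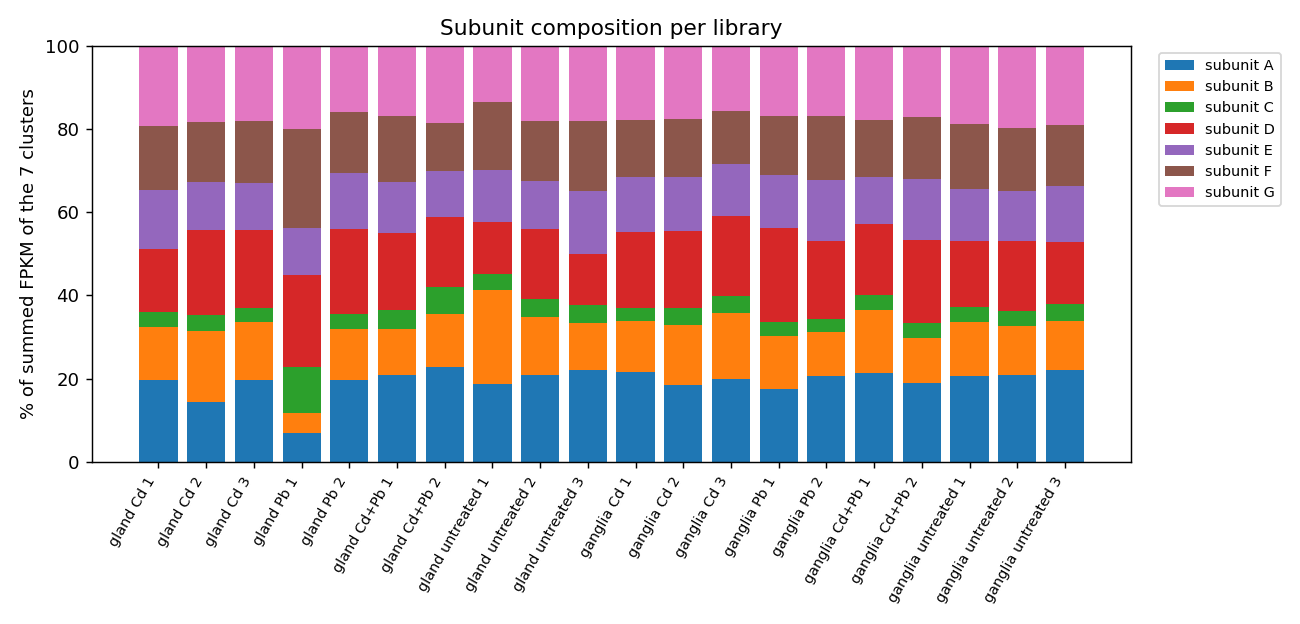
Share of each subunit's long cluster in the summed FPKM of the 7 long clusters, 1 bar per library (Cd, cadmium; Pb, lead). Gland lead replicate 1 departs from the common mixture with 7.01% of subunit A and 11.1% of subunit C. Gland untreated replicate 1 departs with 22.7% of subunit B, and gland combined replicate 2 with 6.635% of subunit C.

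Some gland libraries departed from this mixture. Gland lead replicate 1 held only 558 counts in the 7 long clusters. Of these counts 32 belonged to subunit A, a share of 5.74% (95% Wilson interval 4.09 to 7.98%), against 13.0 to 19.95% in the other 19 libraries. Subunit B had 3.94% (2.62 to 5.90%), against 10.1 to 21.4%. In the other direction subunit C had 22.9% (19.6 to 26.6%), against 7.38 to 14.9%, and F 22.4% (19.1 to 26.0%), against 11.7 to 17.4%. The intervals, which cover counting error only, do not reach the other libraries for these 4 subunits, while those of D, E and G do. Gland untreated replicate 1 had the highest share of subunit B, 22.7% of the summed FPKM, and B ranked first there. Gland combined replicate 2 had the lowest shares of E (11.05%) and F (11.56%) of the 20 libraries. Its share of C, 6.635% of the summed FPKM, was the highest apart from gland lead replicate 1.

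The gland comparisons ask whether the metals changed hemocyanin transcripts in the silk gland. With lead alone, hemocyanin was lower than in untreated glands in both libraries, by a median log2 difference of -3.91 over the 10 clusters tested, against -0.15 over all 44505 clusters tested. edgeR called none of the 10, nor any other cluster in this comparison (percent called 0). The smallest adjusted p was 0.364, for subunit C.

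Subunit A averaged 34.6 ± 46.6 CPM with lead and 610.6 ± 635.7 CPM in untreated glands (SD, n = 2 and 3), a log2 difference of -3.98 ± 1.84 (SE, edgeR adjusted p = 0.429). Subunit C differed by -3.87 ± 1.36 (edgeR adjusted p = 0.364), and the short cluster of subunit G by -4.77 ± 1.76 (edgeR adjusted p = 0.383). Of the 9 clusters above 1 CPM, 8 had both lead libraries below all 3 untreated ones, and 6 had an unadjusted p under 0.05. Of all clusters tested, 15.3% lay below in that way and 4.76% had an unadjusted p under 0.05 with a lower level. The exception was the short cluster of subunit E, at 0.530 and 8.39 CPM with lead, against 1.48, 107.9 and 8.39 CPM in untreated glands.

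DESeq2, another count model, called 6 of these clusters lower with lead, B, C, E, F, G and the short cluster of G, while it called 2.31% of all clusters lower. Its adjusted p ran from 0.0123 for the short cluster of G to 0.0497 for E, and subunit A missed its threshold (adjusted p = 0.0589). Without gland lead replicate 1 the log2 difference of subunit A was -3.01 and without gland lead replicate 2 it was -8.28, since the low level rests on a pair of libraries that differ 39.8-fold. Without gland untreated replicate 2 it was -2.60.

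With both metals the gland stood between lead alone and untreated. Subunit A averaged 147.5 ± 68.3 CPM with both metals (n = 2), a log2 difference from untreated of -1.91 ± 1.65 (edgeR adjusted p = 0.587). None of the 10 clusters tested was called by edgeR, at a percent called of 0.225. Differences of the 9 more abundant clusters ran from -2.80 to -1.22, and 4 of the 9 had both combined libraries below all untreated ones, against 13.4% of all clusters. Without gland untreated replicate 2 the difference of subunit A was -0.53, and without combined replicate 1 or 2 it was -2.98 or -1.28. With cadmium alone the 9 differences ran from -1.44 to -0.92 with adjusted p of 1 in edgeR, and none was called (percent called 0). Without gland untreated replicate 2 the cadmium difference of subunit A turned to 0.14.

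Between exposures of the gland no hemocyanin cluster was called either. Both metals against lead alone gave differences of 1.70 to 2.22 (percent called 0), and 7 of the 9 clusters had both combined libraries above both lead ones, against 15.1% of all clusters. Both metals against cadmium alone gave -1.39 to -0.11 (percent called 0). The 4 libraries with lead against the 6 without gave -3.08 to -1.55 with overlapping levels. edgeR called none of these (percent called 1.69, smallest adjusted p = 0.151), 5 of the 9 had an unadjusted p under 0.05, as did 13.5% of all clusters in that direction, and DESeq2 called B, F, G and the short cluster of G lower, while it called 9.12% of all clusters lower. In each other gland comparison 0 of the 9 had an unadjusted p under 0.05, against 1.79 to 14.9% of all clusters, and DESeq2 called 0.

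Marker lists of other cell types are given beside these values. With lead present against absent in the gland, 2 of 61 muscle clusters rose and 13 fell (median log2 difference -1.92), and 15 of 68 silk gland clusters rose and 3 fell (median 3.79). Over all clusters 1.05% rose and 0.636% fell (median -0.16). With both metals against untreated, 7 of 61 muscle clusters fell and 12 of 68 silk gland clusters rose. Over all clusters 0.106% fell and 0.119% rose in that comparison. With lead alone none of either list was called (percent called 0 over all clusters), at medians of -2.05 for muscle and 4.37 for silk gland. Sums overlapped, at 1400 to 3995 CPM of muscle markers with lead against 3140 to 8539 CPM without, and at 57590 to 148500 CPM of silk gland markers with lead against 52140 to 184400 CPM without. Of midgut clusters 1 of 135 rose (median -0.29), and of fat body and reproductive clusters 0 of 14 were called (median -0.60). The part of other cell types in the hemocyanin values was not tested.

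**Figure D3:**
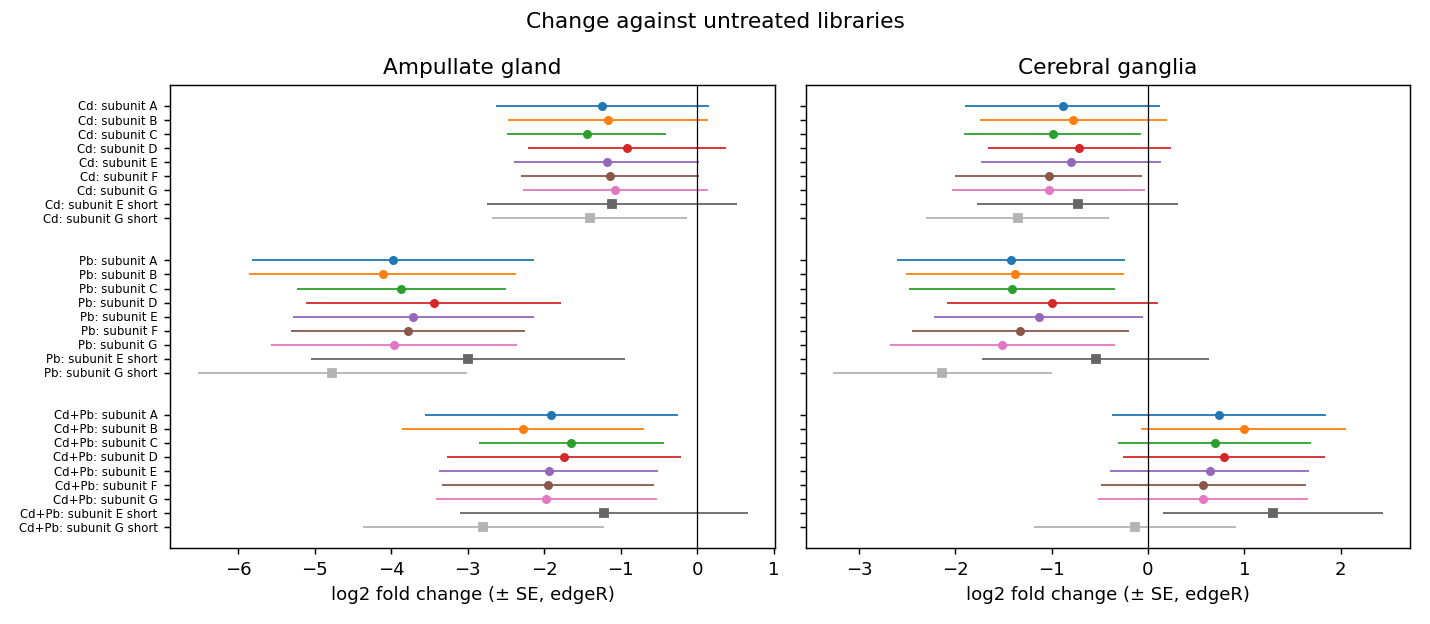
Log2 fold change of 9 hemocyanin clusters against untreated libraries for cadmium, lead and both metals, in the gland (left) and the ganglia (right). Points carry bars of 1 SE, derived from the edgeR F statistic. With lead the gland clusters lie at -4.77 to -3.00, and the bars are 1.36 to 2.06 wide on each side.

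In the ganglia summed hemocyanin of every exposure overlapped with untreated libraries. With lead alone subunit A averaged 774.2 ± 349.8 CPM, against 1565 ± 1234 CPM in untreated ganglia (SD, n = 2 and 3), a log2 difference of -1.42 ± 1.18 (edgeR adjusted p = 0.491). None of the 11 clusters tested was called, at a percent called of 4.91. With cadmium alone the 9 more abundant clusters differed by -1.35 to -0.71 (none called, percent called 0).

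With both metals 8 of those 9 differences were positive, from -0.13 for the short cluster of G to 1.30 for the short cluster of E, and none was called (percent called 1.06). Subunit A averaged 2775 ± 3235 CPM (n = 2), a log2 difference of 0.73 ± 1.11 (edgeR adjusted p = 0.732). That sign rests on 1 library: without ganglia combined replicate 1 the difference was -2.11. Against lead alone the 9 clusters differed by 1.77 to 2.37 (percent called 0) and against cadmium alone by 1.22 to 2.03 (percent called 0.908), again with none called. Without the same library, subunit A differed by -0.70 from lead alone and by -1.22 from cadmium alone. Libraries with lead against those without differed by -0.46 to 0.74, with none called although 12.2% of all clusters were. In each ganglia comparison, 0 of the 9 had an unadjusted p under 0.05, against 5.8 to 31.1% of all clusters, and DESeq2 called 0.

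Whether the change with both metals departs from the sum of the single changes was also tested. The departure of the 9 clusters was positive in both tissues, 2.62 to 3.67 on the log2 scale in the gland and 2.49 to 3.35 in the ganglia. No hemocyanin cluster was called in either tissue, and no cluster of any kind was (percent called 0 in both). Standard errors were 1.67 to 2.62 in the gland and 1.47 to 1.67 in the ganglia. For subunit A the departure was 3.32 in the gland, and 7.60 without lead replicate 2, 4.99 without cadmium replicate 3 and 1.93 without untreated replicate 2. In the ganglia it was 3.04, and 4.61 without cadmium replicate 1 and 0.19 without combined replicate 1. These departures share the untreated libraries with the comparisons above.

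Average hemocyanin levels were lower in the gland than in the ganglia in each exposure. The libraries of the tissues overlapped for all 9 more abundant clusters in untreated spiders and with cadmium, and for none of them with lead or with both metals. In untreated spiders subunit A averaged 610.6 ± 635.7 CPM in the gland and 1565 ± 1234 CPM in the ganglia (SD, n = 3 each), a log2 difference of -1.40 ± 1.36 (edgeR adjusted p = 0.546). None of the 11 clusters tested was called, at a percent called of 10.3. With cadmium the 9 more abundant clusters differed by -1.93 to -1.66 (none called, percent called 11.5). With cadmium and in untreated spiders 0 of the 9 had an unadjusted p under 0.05, against 28.8% and 28.1% of all clusters, and DESeq2 called 0.

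With lead those 9 clusters were lower in the gland by 3.85 to 4.50 on the log2 scale, and with both metals by 3.75 to 4.63. In both exposures every gland library lay below every ganglia library for all 9, against 37.8% of all clusters with lead and 29.1% with both metals. edgeR called none of them, at a percent called of 6.27 in each exposure, and their adjusted p lay between 0.155 and 0.339 with lead and between 0.143 and 0.294 with both metals. In each of these exposures 8 of the 9 had an unadjusted p under 0.05, as did 11.6% of all clusters with lead and 13.3% with both metals in that direction. Subunit A differed by -4.17 ± 1.86 with lead (edgeR adjusted p = 0.231) and by -4.26 ± 1.87 with both metals (edgeR adjusted p = 0.200). DESeq2 called the 7 long clusters and the short cluster of G lower in the gland in both exposures, while it called 6.78% of all clusters lower with lead and 8.51% with both metals. Without ganglia combined replicate 1 the difference of subunit A with both metals was -1.47, and without gland lead replicate 2 that with lead was -8.47.

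The gap between the tissues was not shown to differ between exposures. A test of the exposure by tissue term over all 20 libraries gave adjusted p of 0.895 to 1 for the 11 hemocyanin clusters in edgeR, and no cluster was called (percent called 0; 6.14% had an unadjusted p under 0.05).

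The short clusters did not keep the ratio of their long partners. Subunit E's short cluster, the ninth in abundance and chosen for description after its values were seen, had an FPKM of 2.07, 1.97, 1.83 and 2.47 times that of the long cluster in the 4 gland libraries with lead. In the 6 gland libraries without lead it had 0.108 to 1.39 times. In the ganglia it had 1.51 to 1.70 times with lead and 0.518 to 1.03 times without. In both tissues every library with lead lay above every library without. The share of other cluster pairs ordered in this way was not taken. Of single clusters, 5.43% in the gland and 7.93% in the ganglia were so ordered in CPM.

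The same order held in plain counts, where the short cluster had 0.109 to 0.182 times the counts of the long one in the 8 libraries with lead and 0.00897 to 0.114 times in the 12 without. It held 10 counts in gland lead replicate 1. Subunit G's short cluster went the other way in the median, at 0.931 times the FPKM of its long partner with lead and 1.24 times without, with overlapping ranges of 0.132 to 1.09 and 0.881 to 2.77. Implied fragment length was longer in the libraries with lead within each tissue, and its part in these ratios was not tested.

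**Figure D4:**
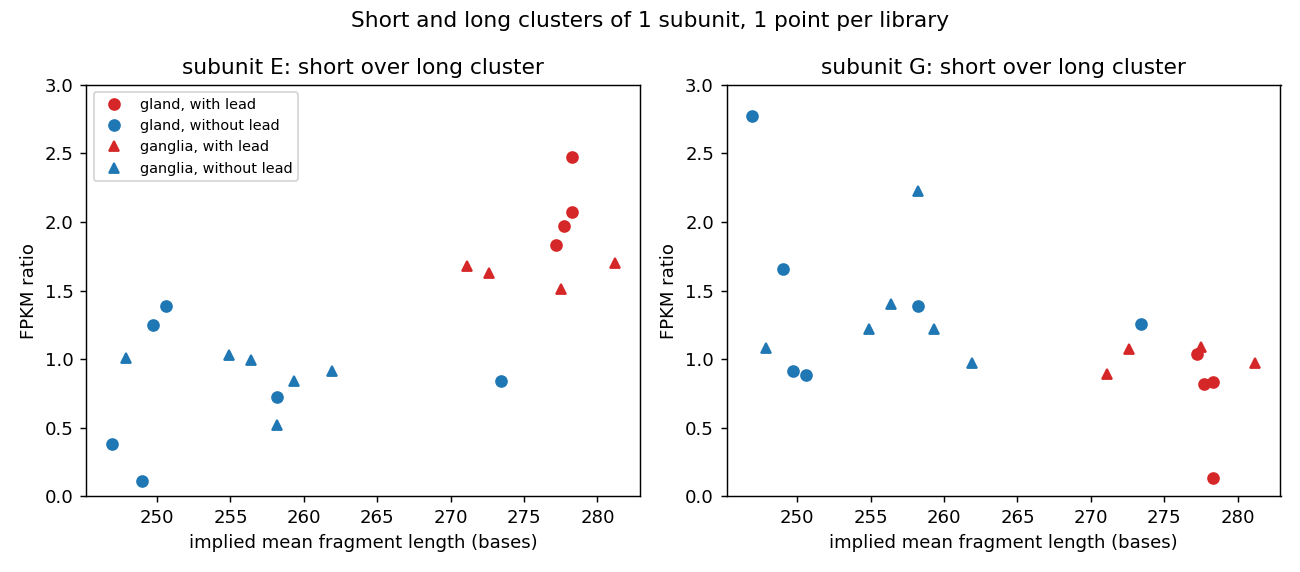
FPKM of the short over the long cluster of subunit E (left) and G (right) against the implied mean fragment length in bases, 1 point per library, red with lead and blue without, circles for gland and triangles for ganglia. For E all 8 libraries with lead lie at 1.51 or above and all 12 without at 1.39 or below. The share of other cluster pairs ordered in this way was not taken.

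Hemocytes are the blood cells that clot and defend, and they share the hemolymph with hemocyanin. Their 8 marker clusters, transglutaminases and astakines by name, summed to 13.8 to 22.0 CPM in glands with lead and 30.2 to 82.0 CPM in glands without, with 6 of the 8 having reads in glands with lead and 7 of the 8 without. Ganglia held 836.4 to 1322 CPM of them with lead, against 495.6 to 1161 CPM without. Most of that was hemocyte transglutaminase, the enzyme that cross-links clots, at 3.75 ± 2.31 CPM in untreated glands and 855.2 ± 139.4 CPM in untreated ganglia (n = 3 each), a log2 difference of -7.99 ± 0.84 (edgeR adjusted p = 6.13e-05). It was called lower in the gland in each of the 4 exposures.

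The gland sums of markers did not overlap between libraries with and without lead, but the list did not move as one. With lead present against absent, 2 of 5 tested had a positive difference and 1 fell (median -0.05), while 0.636% of all clusters fell. Of all clusters tested, 5.52% had every gland library with lead below every one without. The most abundant transglutaminase averaged 3.99 ± 0.211 CPM in glands with lead alone (n = 2), near its untreated level, while a cluster named for astakine in Swissprot averaged 5.47 ± 2.01 CPM with lead alone (n = 2) and 39.3 ± 24.3 CPM untreated (n = 3). Hemocyanin sums overlapped, at 30.43 to 1088 CPM in glands with lead and 361.7 to 7329 CPM without. In the ganglia the library with the most hemocyanin, combined replicate 1, also had the most marker reads, while untreated replicate 2, next in hemocyanin at 15860 CPM, lay in the middle of the marker range. The part of blood cells or hemolymph in the hemocyanin values was not tested.

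Proteins that act beside hemocyanin were followed as lists. Clotting and melanisation clusters, factors of the horseshoe crab clotting cascade among them, summed to 746.2 to 1218 CPM in glands with lead and 1546 to 4282 CPM in glands without. With lead alone 23 of 94 tested in the gland had a positive difference (median -0.92), and none was called. In untreated spiders 3 of 105 were higher in the gland than in the ganglia and 25 lower (median -0.98), while 3.91% of all clusters were called higher and 6.35% lower (median 0.10). Between ganglia with lead and those without, 7 of 96 rose and 7 fell (median 0.21), while 6.54% of all clusters rose and 5.67% fell. In ganglia with lead alone 1 of 96 rose and 5 fell (median -0.09), while 2.67% of all clusters rose and 2.24% fell (median -0.05).

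Clotting factor B, a protease of that cascade, averaged 15.7 ± 3.98 CPM in ganglia with both metals and 19.8 ± 4.35 CPM with lead (n = 2 each), against 91.1 ± 41.1 CPM with cadmium and 84.9 ± 56.4 CPM untreated (SD, n = 3 each). It was called lower with lead than without (log2 difference -2.65 ± 0.54, edgeR adjusted p = 0.0173). Leaving out lead replicate 1 or 2 or combined replicate 1 or 2 ended that call, with edgeR adjusted p of 0.0809, 0.0984, 0.0751 and 0.0818 in that order.

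No other cluster carried the NR or Swissprot name of a phenoloxidase, hexamerin or tyrosinase itself, although the KEGG orthology name of subunit B and of the short cluster of G was that of tyrosinase. The 6 clusters matching such names were named for activators of phenoloxidase. Their sum was 21.1 to 137.7 CPM in glands with lead and 198.1 to 758.6 CPM without. In that comparison 3 of 6 had a positive difference and none was called (median -0.40), and with both metals against untreated 4 of 6 had one (median 0.44, none called). One of them, like phenoloxidase-activating factor 2, averaged 22.8 ± 16.4 CPM in glands with both metals, 54.3 ± 57.1 CPM with lead (n = 2 each) and 198.3 ± 53.1 CPM with cadmium (n = 3). It had 373.1 ± 262.5 CPM in untreated glands and 0.664 ± 0.612 CPM in untreated ganglia (n = 3 each), a log2 difference of 9.01 ± 1.25 (edgeR adjusted p = 0.000569).

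Copper handling clusters, which include copper carriers, metallothionein and copper-zinc superoxide dismutase, overlapped between libraries with and without lead. Their sums in the gland were 252.2 to 481.9 CPM with lead, against 217.6 to 371.6 CPM without. Ganglia held 697.3 to 939.2 CPM with lead, against 588.5 to 1107 CPM without. Of 17 tested in the gland 13 had a positive difference with lead alone (median 1.03, none called), and 13 with both metals (median 1.23, none called). The superoxide dismutase of A. ventricosus itself, which removes superoxide, fell in ganglia with lead alone (75.7 ± 2.30 CPM, against 190.5 ± 30.6 CPM untreated, n = 2 and 3; log2 difference -1.80 ± 0.44, edgeR adjusted p = 0.0453). It was the 1 of 15 tested that fell, while 2.24% of all clusters fell. That call was past the threshold in 6 of 16 alternatives. It ended without cadmium replicate 2, lead replicate 1 or 2, combined replicate 2 or untreated replicate 1, 2 or 3 of the ganglia, with edgeR adjusted p of 0.0669, 0.223, 0.334, 0.0552, 0.0694, 0.0630 and 0.1003 in that order.

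Hemocyte and hemolymph proteins formed a wider list. In the gland with both metals 9 of 48 tested rose and 1 fell against untreated (median log2 difference 1.82, beside -1.92 for hemocyanin). Of all clusters 0.119% rose and 0.106% fell (median -0.04). A pair of alpha-2-macroglobulins, protease traps of hemolymph, were among those that rose. The one most like a bovine protein had 114.3 ± 22.4 CPM with both metals and 1.28 ± 0.258 CPM untreated (n = 2 and 3; log2 difference 6.53 ± 0.54, edgeR adjusted p = 0.0104). The other had 204.9 ± 69.3 CPM with both metals and 5.23 ± 1.01 CPM untreated (5.32 ± 0.52, edgeR adjusted p = 0.0132). Without untreated replicate 1 both calls ended, with edgeR adjusted p of 0.0569 for the first and 0.0633 for the other. Fitted on the groups compared alone, both also missed the threshold (edgeR adjusted p = 0.179). The list summed to 1664 to 5925 CPM in glands with lead and 480.9 to 1204 CPM in glands without.

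Globins, iron proteins that bind oxygen inside cells, and genes of oxygen sensing were followed as other parts of oxygen supply. Globin-named clusters summed to 18.8 to 229.1 CPM in the gland and 96.3 to 283.7 CPM in the ganglia. The most abundant globin was lower in the gland than in the ganglia of untreated spiders (26.1 ± 17.9 and 184.5 ± 74.3 CPM, n = 3 each; log2 difference -3.01 ± 0.61, edgeR adjusted p = 0.00487). Oxygen-sensing clusters summed to 62.3 to 118.1 CPM in the gland and 77.3 to 136.2 CPM in the ganglia. None of the 7 tested in the gland or the 6 in the ganglia was called with lead alone or with both metals against untreated, where 0 to 4.91% of all clusters were. With lead present against absent 1 of 7 rose in the gland (1.05% of all clusters rose), a cluster like regulator of hypoxia-inducible factor 1 of Caenorhabditis elegans, and 1 of 6 rose in the ganglia (6.54% of all clusters rose), a cluster named protein cycle-like. The list was drawn by name, and a role of its clusters in oxygen sensing was not tested.

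**Figure D5:**
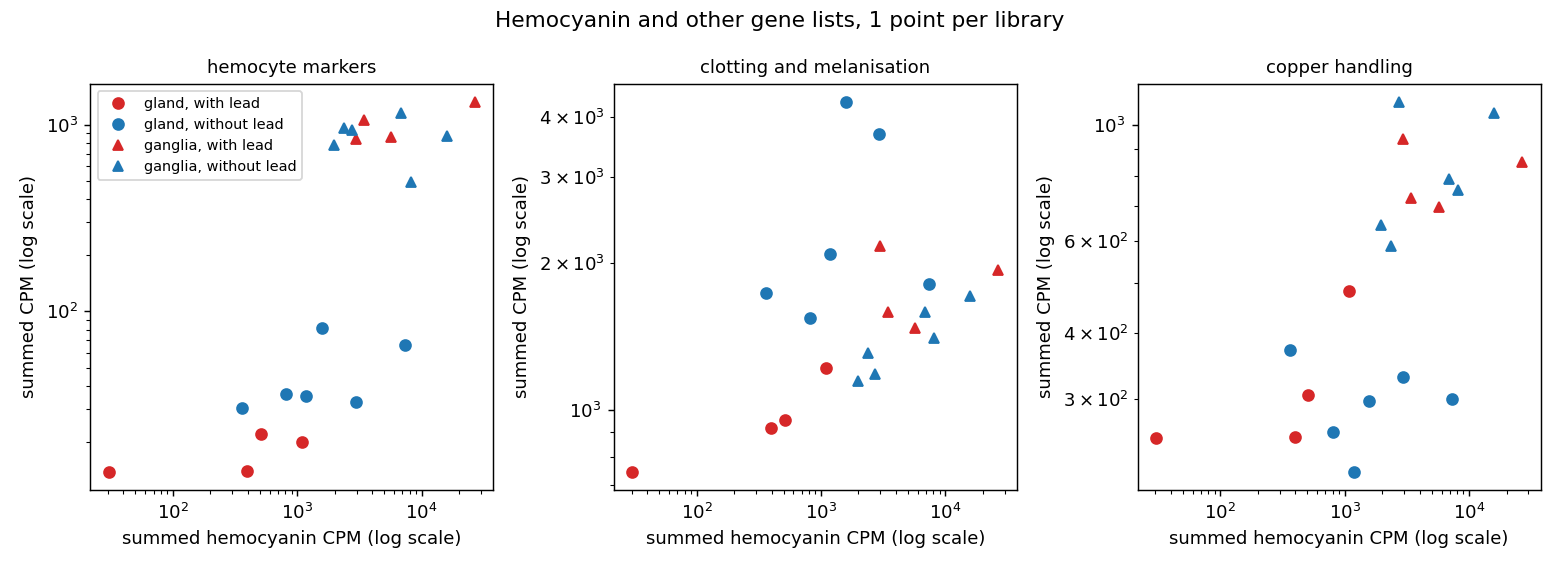
Summed CPM of hemocyte markers (left), clotting and melanisation clusters (middle) and copper handling clusters (right) against summed hemocyanin CPM, both on log scales, 1 point per library, red with lead and blue without, circles for gland and triangles for ganglia. Gland libraries with lead sit at 13.8 to 22.0 CPM of hemocyte markers, below all gland libraries without, at 30.2 to 82.0 CPM, although 2 of the 5 markers tested in the gland had a positive difference with lead present.

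Among 14582 other described clusters above 1 CPM, those whose levels ran most like summed hemocyanin were ranked by the Pearson correlation of log2(CPM + 1) over the 20 libraries, centred on the mean of each tissue. The chaperone-like isomerase FKBP4 came first with 0.83, followed by a carbonic anhydrase 2-like protein, an enzyme of carbon dioxide exchange, with 0.805. A cluster named BLTX228 had 0.793, a cysteine-rich secretory protein 0.791 and a toxin-like peptide, U3-aranetoxin-Ce1a, 0.789. The lipoprotein receptor LRP2 had 0.775, a chymotrypsin inhibitor 0.769 and the proton channel Otopetrin-1 0.767. Regucalcin, a calcium-binding protein, had 0.765 and a chitinase 0.763. No cluster exceeded 0.9 on this measure. Within the ganglia alone the values ran from 0.523 for the chitinase to 0.911 for regucalcin. Within the gland alone they ran from 0.721 for regucalcin to 0.891 for the chitinase. Some of these clusters had few reads: the chymotrypsin inhibitor reached at most 0.646 CPM in the ganglia, and LRP2 averaged 1.04 CPM.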

How the data were processed

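Per the labels' protocols, RNA came off RNeasy columns and a SMARTER mRNA-Seq kit turned it into libraries. The authors deposited a table of estimated counts (expected counts, not always whole) per assembled cluster and a table of FPKM for the same clusters. The FPKM unit was read from the values, and which assembler, aligner and counter made the tables is not given in the sources used. No genome was used.

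Members were found by name in the annotation columns. Members, gene lists and tests were chosen with earlier results of these data known. Counts were rounded to whole numbers (at most 0.0093% of a library's counts changed) and each tissue was fitted once over its 10 libraries in edgeR 4.0.16, with filterByExpr as the filter, TMM scaling and glmQLFTest after a robust glmQLFit. The 20 libraries were fitted together for the tissue differences and the exposure by tissue term with 3 degrees of freedom. Groups of 2 are assumed to vary like the others. Benjamini-Hochberg adjustment ran over all clusters of a comparison, with calls at an adjusted p under 0.05.

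CPM in the text are counts over library totals, while fold changes use TMM. The SE of an edgeR difference was derived as its absolute log2 value over the square root of the F statistic. Implied fragment length is cluster length minus the effective length that FPKM imply, over clusters above 200 counts. The fitting code was tested on simulated data. Named with values are the 8 members of highest mean CPM, the 10 clusters most alike by tissue-centred log2(CPM + 1), and up to 4 called or abundant clusters per list. Alternatives were RLE size factors, no filter, at least 1 CPM in 2 libraries, DESeq2 1.42.0, the replicate block, only the groups compared, a pseudocount of 0.1 and each library left out. R 4.3.3 and Python 3.11.15 were used.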

Additional observations from a re-analysis of the deposited data

How the results depend on the processing

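No hemocyanin cluster was called by edgeR in any of the 19 comparisons, and the replicate block, RLE size factors, a minimum of 1 CPM in 2 libraries and all 240 counts with 1 library left out also gave 0. Fits on the groups compared alone, made for the 10 comparisons between a pair of exposures, gave 0. DESeq2 gave 6 with lead against untreated and 4 with lead present against absent in the gland, and 8 each between the tissues with lead and with both metals. Without a filter on low counts edgeR gave 1 with lead present against absent in the gland, the short cluster of G, and 1 between the tissues with both metals. The share of all clusters called without a filter is not given, so these calls are not read as a result about hemocyanin. The cause of these shifts was not tested.

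Signs of log2 differences that missed the threshold depended on single libraries. Leaving 1 library out, subunit A in the gland ranged from -2.92 to 0.14 for cadmium against untreated and from -1.70 to 1.001 for both metals against cadmium. In the ganglia with both metals it ranged from -2.11 to 1.63 against untreated, from -0.70 to 3.01 against lead and from -1.22 to 3.18 against cadmium. For lead present against absent in the ganglia it ranged from -1.32 to 0.88. The short cluster of E ranged from -6.04 to 0.0093 with lead in the gland and from -1.06 to 2.17 with both metals in the ganglia, where the short cluster of G ranged from -2.66 to 0.74. With replicate numbers as a block, subunit A reversed to 0.48 for both metals against cadmium in the gland, and in the ganglia to -0.31 for both metals against untreated and -0.38 for lead present against absent.

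The numbers were not treated as pairing libraries: of 26 same-numbered pairs within a tissue 7 had deviations correlated above 0.1, and of 10 across tissues 0 did. Not all of these pairs are distinct. Deviations in a group of 2 mirror each other, so pairs between such groups repeat 1 value, as ganglia lead and combined did at 0.175. The order of subunit E's short over long ratio in counts was added after seeing the data and held for 8 of 8 libraries with lead. Of the 10 clusters most alike, 7 were shared with a pseudocount of 0.1. Groups held 2 to 3 libraries, and summed hemocyanin spread up to 13.0-fold within a group. Single clusters spread wider, as subunit A did by 39.8-fold in glands with lead and the short cluster of E by 72.7-fold in untreated glands. Gland lead replicate 1, with 574 hemocyanin counts, entered the gland fit and the fit of both tissues but not the ganglia fit.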

Other observations

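The library with the most hemocyanin in its group carried the same replicate number in both tissues for lead (replicate 2), for both metals (replicate 1) and in untreated spiders (replicate 2), but not for cadmium (gland replicate 3 and ganglia replicate 1). The labels do not say whether numbers mark animals, and this was noticed after the values were seen. With so few libraries per group such matches come easily without any pairing, and their rate was not computed. Deviations of these same-numbered libraries over clusters of at least 1 CPM correlated at -0.125 for lead, -0.057 for both metals and -0.188 for untreated.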
